A study of Mus musculus with 8 samples.

Results

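The transcripts described here are the messenger RNAs of the mitochondrial genome in whole eyes of mice that lack the glucocorticoid receptor gene Nr3c1 in the retina and of control mice. They were taken as every row of the count table whose symbol begins with mt- in lower case, which gave 13 of 32517 rows. All 13 are protein-coding messengers, and all 13 passed the filter on low counts. GENCODE M21 lists 37 genes on the mouse mitochondrial chromosome, of which 13 code for proteins, 2 for ribosomal RNAs and 22 for transfer RNAs. The ribosomal and transfer RNAs are not analysed here, so the comparison of RNA classes is one between strands and between the respiratory complexes that the messengers serve.

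The mitochondrial genome is a small circle that is transcribed from both strands into long precursors, which are cut into messengers, mostly at the transfer RNAs between the genes. Messengers of one strand therefore start from a shared precursor, and their levels are known to depend also on processing, polyadenylation and decay. Every protein it encodes is a subunit of the respiratory chain or of the ATP synthase, and photoreceptors of the retina are among the cells with the highest demand for the ATP these complexes make.

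Eyes came from retina-specific Nr3c1 knockout mice carrying Cre (cKO) and from Cre-negative controls (WT). All mice were males of 12 weeks, housed with 12 h light and 12 h dark, and received no drug. Eyes were collected at ZT3, ZT9, ZT15 and ZT21, hours after lights-on, and equal amounts of RNA from 3 mice were pooled per genotype and time, so each genotype has 4 libraries and no time has a second one. The labels do not name the Cre driver. Their tissue field says ciliary body and their cell type field says nonpigmented ciliary epithelium, but the protocols speak of whole eyes.

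Library totals ran from 13672717 to 20309611 counts in cKO and from 11748995 to 15255578 counts in WT. Nr3c1 stood between 32.5 and 38.2 CPM (counts scaled per 1e6 of the TMM-adjusted library size) in cKO and between 78.2 and 145.1 CPM in WT, lower in each cKO library than in any WT library. Of 14 rod genes the summed level was 59261 to 69112 CPM in cKO and 51208 to 62273 CPM in WT, while the 8 rows found of 9 markers of the nonpigmented ciliary epithelium summed to 405 to 513 CPM in cKO and 369 to 510 CPM in WT, none at 0 throughout. As each genotype and time has a single pool, p-values do not measure the spread between mice. The spread they rest on mixes that between pools with any change of the genotype difference over time.

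The 13 messengers lie on the mitochondrial chromosome (GRCm38, GENCODE M21) between 2751, the first base of mt-Nd1, and 15288, the last base of mt-Cytb. On the usual naming, 12 are heavy-strand messengers and 1, mt-Nd6, is the light-strand messenger, read in the opposite direction. Complex I (NADH dehydrogenase) has 7 of them, complex III (cytochrome c reductase) 1, complex IV (cytochrome c oxidase) 3 and complex V (ATP synthase) 2. Several pairs of neighbours share bases. mt-Atp8 (7766 to 7969) and mt-Atp6 (7927 to 8607) share 43, mt-Nd4l and mt-Nd4 share 7, mt-Atp6 and mt-Co3 share 1, and mt-Nd5 and mt-Nd6 share 14 on opposite strands. Genes that overlap on the same strand have no transfer RNA between them. Their rows need not stand for separate RNAs, though each row is called a messenger here. The transcript of mt-Atp8 is shown because part of it belongs to its neighbour as well, with the shared bases in capitals.
mt-Atp8: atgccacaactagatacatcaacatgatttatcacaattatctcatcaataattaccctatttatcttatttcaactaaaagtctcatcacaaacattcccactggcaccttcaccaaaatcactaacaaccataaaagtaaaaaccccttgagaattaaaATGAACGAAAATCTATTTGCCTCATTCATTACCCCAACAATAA

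Of the 13 messengers, 9 also have a near copy in the nuclear genome that the table counts as a gene of its own. Copies were looked for only among the annotated transcripts of GENCODE M21, so a copy without an annotation would be missed. For mt-Nd1, mt-Nd6, mt-Cytb and mt-Atp8 none was found there at 95% identity or more over 80% or more of the copy. In all 11 such copies were found, 7 of them on chromosome 1, and 5 are identical to the mitochondrial gene over the aligned bases. The copies of mt-Co2 and mt-Co1 hold most of the copy counts, so their letters are set beside the mitochondrial ones. Gm28661 (chromosome 1, 24614885 to 24615565, minus strand) matches mt-Co2 over 681 bases with no difference, and Gm13341 on chromosome 2 is 95.9% identical. The first 90 bases are shown, with capitals at the positions where Gm13341 differs (C25T and G57A, counted from the first base of mt-Co2, whose own base comes first).
mt-Co2: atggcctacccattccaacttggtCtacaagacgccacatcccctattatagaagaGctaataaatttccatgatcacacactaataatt
Gm28661: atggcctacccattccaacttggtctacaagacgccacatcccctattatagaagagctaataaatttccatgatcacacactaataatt
Gm13341: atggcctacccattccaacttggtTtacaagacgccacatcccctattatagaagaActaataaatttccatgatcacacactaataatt
Gm29216 (chromosome 1, 24615706 to 24616197, minus strand) matches the last 483 bases of mt-Co1 with 1 difference, A1066T, and Gm13340 on chromosome 2 is 97.6% identical to the whole gene and has T1072C in the stretch shown, bases 1063 to 1106 of mt-Co1. Capitals mark these positions.
mt-Co1: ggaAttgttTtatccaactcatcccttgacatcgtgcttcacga
Gm29216: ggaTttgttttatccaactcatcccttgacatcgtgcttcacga
Gm13340: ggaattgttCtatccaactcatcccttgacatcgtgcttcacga
A read from the shared stretches of mt-Co2 cannot be placed by its sequence. The same holds for the bases that mt-Co3, mt-Atp6, mt-Nd4 and mt-Nd4l share with an identical copy. It also holds for most of the stretches that mt-Co1 shares with Gm29216 and mt-Nd3 with Gm28438. How such reads were assigned is not given in the sources used here.

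Together the 13 messengers took 6.11, 3.69, 2.08 and 3.63% of the counts in the cKO libraries of ZT3, ZT9, ZT15 and ZT21, against 5.49, 1.31, 1.35 and 1.09% in WT. Exact 95% binomial intervals were narrow (6.10 to 6.13% for the highest library and 1.08 to 1.09% for the lowest) and cover counting error only. The cKO share was the larger at each of the 4 times, and the WT library of ZT3 stood apart from the other WT libraries, within the cKO range. The mean was 3.88 ± 1.67% in cKO and 2.31 ± 2.12% in WT (SD, n = 4 each). The difference of 1.57 percentage points was smaller than the spread within WT, and a two-sided exact permutation test, which ignores time and has 70 arrangements and a smallest p of 0.0286, gave p = 0.286. The difference was 2.63 points without WT at ZT3 (exact permutation p = 0.0571) and 0.822 points without cKO at ZT3 (exact permutation p = 0.571). As a share of counts per kilobase, cKO was not the larger at ZT3 (14.66% against 14.78% in WT), while it was at ZT9, ZT15 and ZT21. By that measure the difference was 3.07 points (exact permutation p = 0.4). In bulk tissue, more cells rich in mitochondria and more mitochondrial RNA per cell cannot be told apart.

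**Figure D1:**
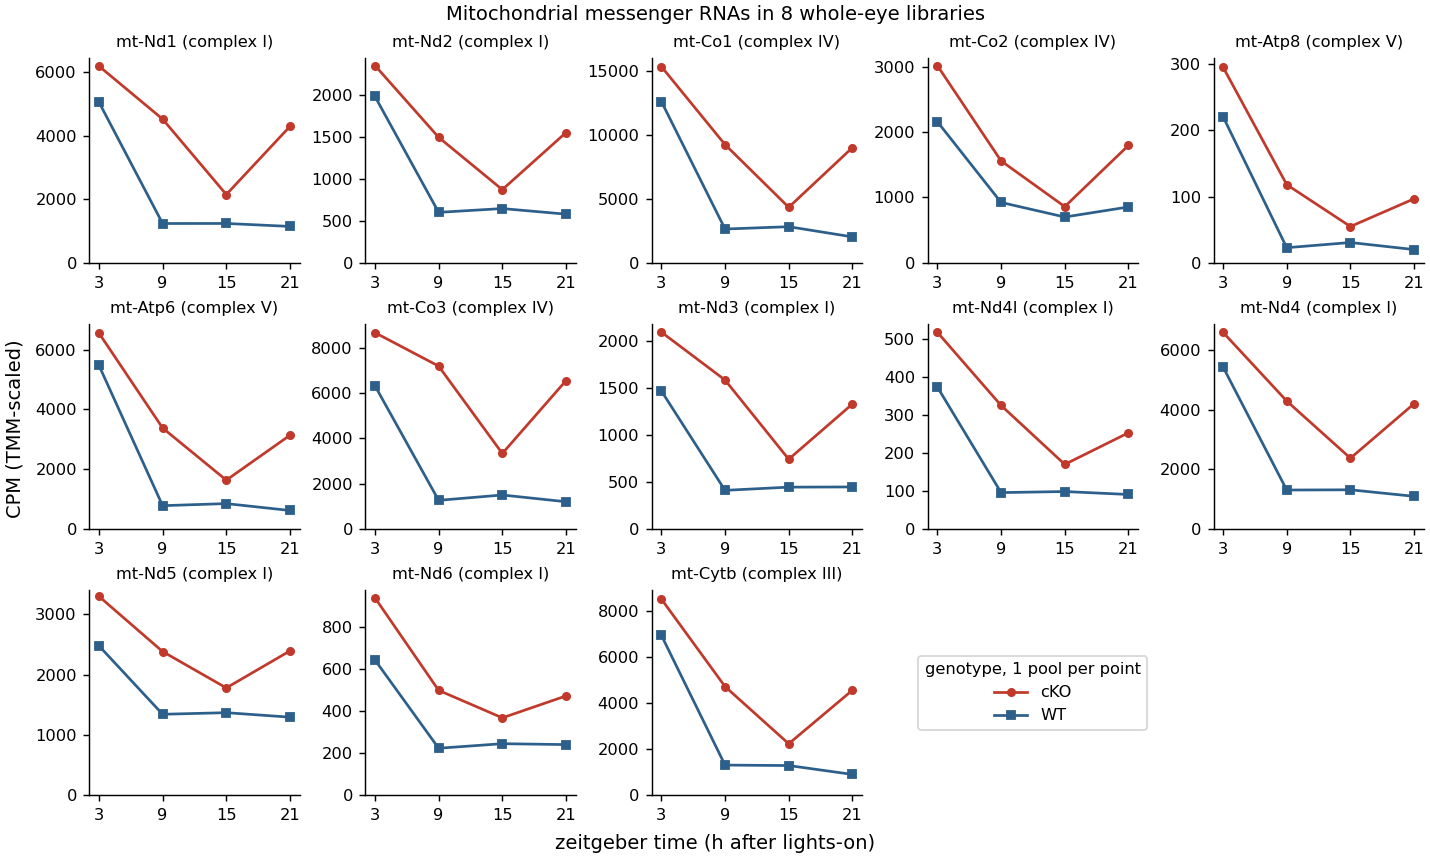
CPM of each of the 13 messengers (linear axes from 0, scaled per gene) in the 4 cKO libraries and the 4 WT libraries, by zeitgeber time in hours. Every messenger is highest at ZT3 in both genotypes, and the WT values at ZT9, ZT15 and ZT21 lie below the cKO values of the same time.

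All 13 messengers were higher in cKO than in WT at 4 of 4 times, which held for 15.7% of the 15373 genes tested. For none of the 13 did the cKO libraries all lie above the WT libraries, which held for 3.73% of all genes (3.16% lay wholly below), as WT at ZT3 lay above the lowest cKO library for each messenger. The fold of cKO over WT differed between times. Across the 13 it ran from 1.19 (mt-Nd2) to 1.46 (mt-Nd6) at ZT3, from 1.69 (mt-Co2) to 5.68 (mt-Co3) at ZT9, from 1.23 (mt-Co2) to 2.22 (mt-Co3) at ZT15 and from 1.85 (mt-Nd5) to 5.44 (mt-Co3) at ZT21. The medians were 1.33, 3.49, 1.72 and 3.74, and with 1 library each no single time has a test.

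In the model with time as a factor, the log2 fold change of cKO over WT was positive for all 13, from 0.63 for mt-Nd5 to 1.64 for mt-Co3, with a median of 1.20 against -0.03 over all genes tested. At an unadjusted p under 0.05 in edgeR 13 of 13 were higher, against 10.5% of all genes that were higher at that threshold and 11% that were lower. After Benjamini-Hochberg adjustment over all genes edgeR called none of the 13 (adjusted p 0.157, and 0.162 for mt-Co1), and 0 of all genes, whose smallest adjusted p was 0.141. limma-voom also called 0 of the 13 (adjusted p 0.146), with 13 at an unadjusted p under 0.05. DESeq2 called 10 of the 13 at an adjusted p under 0.05. Of the 9469 genes to which it gave an adjusted p, 4.59% were called higher and 1.5% lower. The other 3 of the 13 were mt-Co1 (0.306), mt-Co3 (0.120) and mt-Nd4 (0.110). Without time as a factor 1 of 13 kept an unadjusted p under 0.05, and the median log2 fold change was 0.93.

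The 7 complex I messengers had log2 fold changes between 0.63 and 1.22, with a median of 1.12. mt-Nd1, a membrane subunit of complex I and the first messenger on the heavy-strand precursor, had 6190, 4523, 2151 and 4293 CPM in the cKO libraries of ZT3, ZT9, ZT15 and ZT21, against 5056, 1239, 1240 and 1147 CPM in WT. Its WT libraries after ZT3 formed a tight group below every cKO library, while WT at ZT3 exceeded 3 of the 4 cKO libraries. The log2 fold change was 1.22 (SE 0.30, edgeR adjusted p 0.157, DESeq2 adjusted p 0.00187).

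mt-Nd5, a proton-pumping subunit at the far end of complex I and the longest of the 13, had 3298, 2382, 1779 and 2393 CPM in cKO, against 2477, 1341, 1368 and 1293 CPM in WT. It varied least of the 13 messengers between libraries, the highest being 2.55 times the lowest, and its log2 fold change was 0.63 (SE 0.15, edgeR adjusted p 0.157, DESeq2 adjusted p 0.00352). mt-Nd6, the light-strand messenger and a complex I subunit, had 936, 497, 367 and 471 CPM in cKO, against 641, 222, 244 and 240 CPM in WT. Its log2 fold change of 0.82 (SE 0.14) had the smallest unadjusted p of the 13, 0.000628, at an edgeR adjusted p of 0.157 and a DESeq2 adjusted p of 0.000214. As the strand of the counting is not given, reads of mt-Nd6 and of heavy-strand RNA that runs across it cannot be told apart.

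The other complex I messengers were also highest in cKO at ZT3. mt-Nd4 had 6586, 4286, 2371 and 4198 CPM in cKO, against 5425, 1305, 1313 and 1095 CPM in WT. mt-Nd4l, which overlaps it and is among the shortest of the set, had 516, 324, 170 and 253 CPM in cKO, against 372, 95.6, 98.3 and 90.6 CPM in WT. Their log2 fold changes were 1.20 (SE 0.29) and 1.12 (SE 0.22), at an edgeR adjusted p of 0.157. mt-Nd3, a small subunit at the hinge of complex I, averaged 1436 ± 562 CPM in cKO and 692 ± 517 CPM in WT (SD, n = 4 each), a log2 fold change of 1.19 (SE 0.25). mt-Nd2, a membrane subunit, averaged 1565 ± 605 CPM in cKO and 951 ± 686 CPM in WT, with a log2 fold change of 0.85 (SE 0.23).

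mt-Cytb, cytochrome b and the one complex III subunit of the genome, had 8511, 4713, 2229 and 4554 CPM in cKO, against 6937, 1304, 1284 and 899 CPM in WT. The 3 later WT libraries lay below every cKO library. Its log2 fold change was 1.32 (SE 0.35, edgeR adjusted p 0.157, DESeq2 adjusted p 0.0494).

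The 3 complex IV messengers code for the core subunits of cytochrome c oxidase. mt-Co3 had 8667, 7190, 3334 and 6549 CPM in cKO, against 6322, 1265, 1501 and 1204 CPM in WT, and its log2 fold change of 1.64 (SE 0.38, edgeR adjusted p 0.157) was the highest of the 13. By its own row it had 8208 ± 2869 CPM per kb in cKO and 3282 ± 3192 CPM per kb in WT, the highest level per length of the 13 rows. With nuclear copies counted with their gene, mt-Co2 stood above it, at 8843 ± 4037 CPM per kb in cKO and 4193 ± 4496 CPM per kb in WT, against 8226 ± 2880 CPM per kb in cKO and 3296 ± 3219 CPM per kb in WT for mt-Co3, differences well within the SD. mt-Co1 had 15371, 9262, 4354 and 9027 CPM in cKO, against 12637, 2651, 2834 and 2037 CPM in WT, with a log2 fold change of 1.21 (SE 0.34, edgeR adjusted p 0.162).

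mt-Co2, which carries the copper site that receives electrons from cytochrome c, had 3014, 1559, 860 and 1795 CPM in cKO, against 2157, 924, 701 and 855 CPM in WT. Its log2 fold change of 0.65 (SE 0.16) was among the lowest of the set, and the counts of its nuclear copies change that value. With the counts of Gm28661 and Gm13341 added, the log2 fold change was 1.44 (SE 0.36, edgeR adjusted p 0.157).

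The 2 complex V messengers, mt-Atp6 (the subunit that forms the proton channel with the rotor) and mt-Atp8 (a small membrane subunit), had the widest swings. mt-Atp6 had 6557, 3380, 1635 and 3137 CPM in cKO, against 5475, 781, 850 and 619 CPM in WT. mt-Atp8 had 295, 118, 54.8 and 96.6 CPM in cKO, against 220, 22.9, 30.7 and 20.1 CPM in WT. The highest library was 14.7 times the lowest for mt-Atp8 and 10.6 times for mt-Atp6. Their log2 fold changes were 1.46 (SE 0.35) and 1.42 (SE 0.36), with DESeq2 adjusted p 0.0380 and 0.0433. Part of the mt-Atp8 reads can come from the bases it shares with mt-Atp6, whose row stands far above it.

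**Figure D2:**
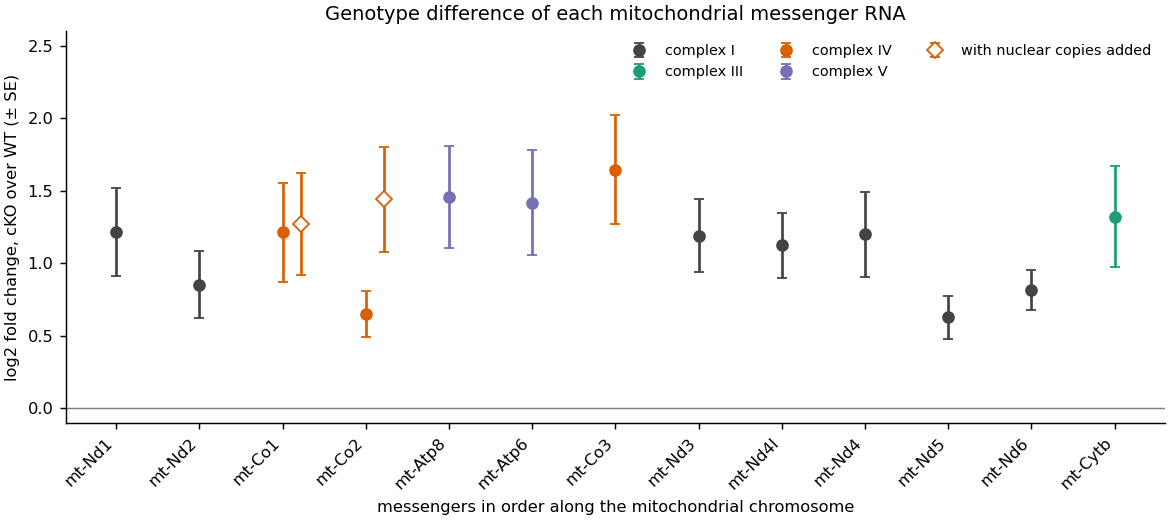
log2 fold change of cKO over WT for the 13 messengers from the edgeR fit with time as a factor, with bars of 1 standard error, ordered along the mitochondrial chromosome and coloured by complex. Open diamonds give mt-Co1 and mt-Co2 with the counts of their nuclear copies added, and the 13 filled points lie above 0, between 0.63 (mt-Nd5) and 1.64 (mt-Co3).

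Set against position, the log2 fold change had a Spearman rho of -0.07 with the order of the 12 heavy-strand genes and of -0.29 with their length, as a description across genes that share libraries.

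Every messenger was highest at ZT3 in both genotypes, 13 of 13, against 24.8% of all genes. Over the mean of the other times, ZT3 stood 1.51-fold (mt-Nd5) to 3.29-fold (mt-Atp8) higher in cKO and 1.86-fold (mt-Nd5) to 8.97-fold (mt-Atp8) higher in WT. In the fit of both genotypes together, ZT3 minus the other times was 0.75 (mt-Nd5) to 2.52 (mt-Atp8) on the log2 scale, with a median of 1.55 against -0.01 over all genes. The test of the 4 times together passed an unadjusted p under 0.05 for 13 of 13 in edgeR, against 25.9% of all genes and 13.6% of all genes with ZT3 on the high side.

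After adjustment edgeR called 0 of the 13 (adjusted p 0.0769 to 0.153), and DESeq2 called 10 of 13. Of the 15174 genes with a DESeq2 adjusted p, 7.64% were called with ZT3 on the high side (13% in either direction). Without cKO at ZT9, edgeR called 10 of the 13, among 1697 genes called in that fit. On leaving out any other single library it called 0 of the 13. The 3 that DESeq2 did not call were mt-Co1 (0.432), mt-Co3 (0.550) and mt-Nd4 (0.152). The contrast rests on the WT library of ZT3 in part. Without it 4 of 13 kept an unadjusted p under 0.05 and the median of ZT3 minus the other times was 1.07 on the log2 scale, against 1.55 with all libraries. The difference in daily wave between the genotypes passed for 0 of 13 at an unadjusted p under 0.05 (edgeR adjusted p 0.9999), against 3.08% of all genes, in a fit with 2 residual degrees of freedom. On simulated counts that fit found none of the changes put in, so this count says nothing of whether the waves differ.

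Within the mitochondrial counts the make-up of the set also differed between libraries. mt-Co3 took 13.5, 17.4, 15.9 and 16.5% of the 13 rows' counts in cKO, against 12.4, 10.4, 12.0 and 11.4% in WT. It was the only messenger whose groups did not overlap. By CPM, the cKO libraries lay wholly above WT for 3.73% of all genes and wholly below for 3.16%. Those rates are for another measure, and by CPM mt-Co3 overlapped as the other messengers did. They give no background for a share within the 13 rows, so the non-overlap is not read as setting mt-Co3 apart. The 13 shares also depend on each other. mt-Nd5 took 5.12, 5.77, 8.50 and 6.04% in cKO, against 4.84, 11.03, 10.9 and 12.3% in WT. Its share was low in the cKO libraries and in WT at ZT3, and high in the 3 WT libraries with the smallest mitochondrial share. mt-Nd4 and mt-Nd1 kept nearly the same share in all libraries, 10.2 to 11.3% in cKO and 10.4 to 10.7% in WT for mt-Nd4, and 9.62 to 10.9% in cKO and 9.88 to 10.9% in WT for mt-Nd1.

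**Figure D3:**
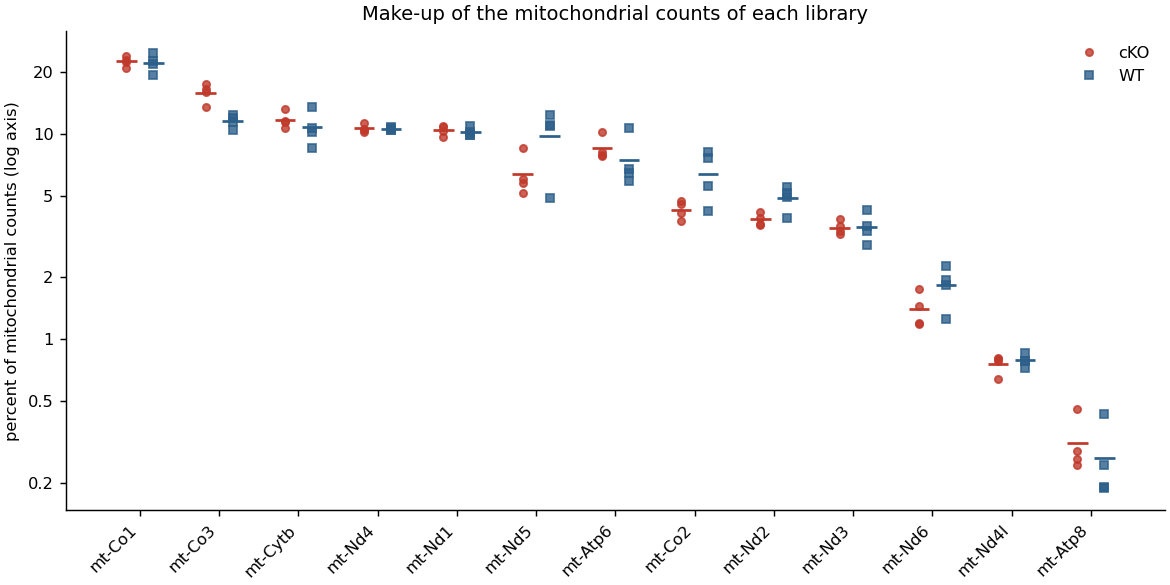
Percent of the 13 messengers' counts taken by each messenger in the 4 cKO libraries and the 4 WT libraries (log axis, 1 point per library, short lines at the means). mt-Co3 lies between 13.5 and 17.4% in cKO and between 10.4 and 12.4% in WT, and mt-Nd5 reaches 12.3% in WT at ZT21.

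Over the other 12 messengers, mt-Nd5 had a ratio of 0.0540, 0.0612, 0.0929 and 0.0642 in the cKO libraries of ZT3, ZT9, ZT15 and ZT21, against 0.0509, 0.124, 0.122 and 0.140 in WT. The summed level of those 12 varied 6.62-fold between the highest and the lowest library, against 2.55-fold for mt-Nd5.

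**Figure D4:**
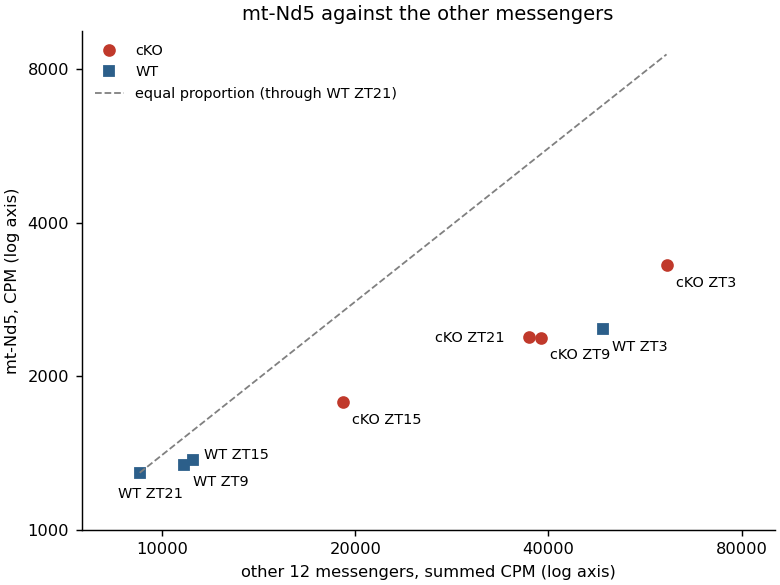
CPM of mt-Nd5 against the summed CPM of the other 12 messengers (both log axes), with 1 point per library and a dashed line of equal proportion through WT at ZT21. The cKO libraries and WT at ZT3 lie to the right and below the line, while WT at ZT9 and ZT15 lie close to it.

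By complex, messengers of complex I held 36.9 ± 2.598% of the mitochondrial counts in cKO and 41.5 ± 5.28% in WT (SD, n = 4 each), those of complex IV 42.6 ± 1.39% in cKO and 40.02 ± 0.976% in WT, those of complex III 11.7 ± 1.08% in cKO and 10.8 ± 2.09% in WT, and those of complex V 8.84 ± 1.22% in cKO and 7.71 ± 2.31% in WT. The ratio of complex IV to complex I counts was 1.23, 1.19, 1.01 and 1.20 in cKO, against 1.21, 0.928, 0.940 and 0.837 in WT, higher in cKO at 4 of 4 times. The log2 ratio, cKO minus WT, differed by 0.25 (two-sided exact permutation p = 0.114). For complex III over complex I it differed by 0.30 (exact permutation p = 0.286). For complex V over complex I it differed by 0.39 (exact permutation p = 0.286). The permutation tests of the ratios ignore time, as that of the share did, so they do not test the differences within times. For complex IV over complex I, the difference was 0.38 with nuclear copies added (exact permutation p = 0.114) and 0.16 as a mean of log2 counts over members (exact permutation p = 0.2). These ratios leave mt-Nd5 in complex I, and without it the difference was 0.14 for complex IV (exact permutation p = 0.0571), 0.19 for complex III (exact permutation p = 0.4) and 0.29 for complex V (exact permutation p = 0.314). With mt-Nd5 kept, leaving out WT at ZT3 gave 0.68 for complex V (exact permutation p = 0.0286) and 0.51 for complex III (exact permutation p = 0.0571), and leaving out WT at ZT21 gave 0.24 for complex V (exact permutation p = 0.543) and 0.14 for complex III (exact permutation p = 0.514).

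Between the strands, mt-Nd6 over the 12 heavy-strand messengers was 0.0148, 0.0122, 0.0178 and 0.0120 in cKO, against 0.0127, 0.0186, 0.0198 and 0.0233 in WT. The cKO ratio was the lower at 3 of the 4 times, and the mean log2 difference was -0.38 (two-sided exact permutation p = 0.143). Over the 4 ratios compared, the adjusted p was 0.286 for each.

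The near copies took counts unevenly. Gm28661 held 101968, 84727, 26105 and 57902 counts in the cKO libraries of ZT3, ZT9, ZT15 and ZT21, against 87111, 4684, 10726 and 4734 counts in WT. As a share of Gm28661 and mt-Co2 together this was 68.3, 75.0, 69.1 and 68.3% in cKO, against 71.1, 28.6, 53.5 and 28.3% in WT. Although the letters are the same over 681 bases, the split between the rows differed between libraries. The copy's part was high in the 4 cKO libraries and in WT at ZT3, lower in WT at ZT15 and lowest in WT at ZT9 and ZT21.

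Gm29216 showed a smaller spread, with 20.4, 17.3, 15.0 and 15.3% of Gm29216 and mt-Co1 together in cKO, against 18.8, 12.2, 12.0 and 11.5% in WT. Copies of the other messengers took few counts. Gm28437, identical to mt-Co3 over 783 bases, held at most 706 counts in a library, and Gm10222 and Gm28439, identical to mt-Nd4l and to 876 bases of mt-Nd4, held 0. All copies together made up 14.0, 13.8, 11.4 and 12.2% of the counts of messengers and copies in cKO, against 14.0, 5.72, 8.70 and 5.40% in WT. With copies added, mt-Co2 took 12.7, 12.99, 11.8 and 12.5% of the mitochondrial counts in cKO, against 12.6, 10.03, 10.97 and 10.7% in WT, whereas its own row alone took 4.68, 3.77, 4.11 and 4.53% in cKO, against 4.22, 7.60, 5.58 and 8.12% in WT. The direction for mt-Co2 within the mitochondrial counts thus depends on whether its copies are counted with it.

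**Figure D5:**
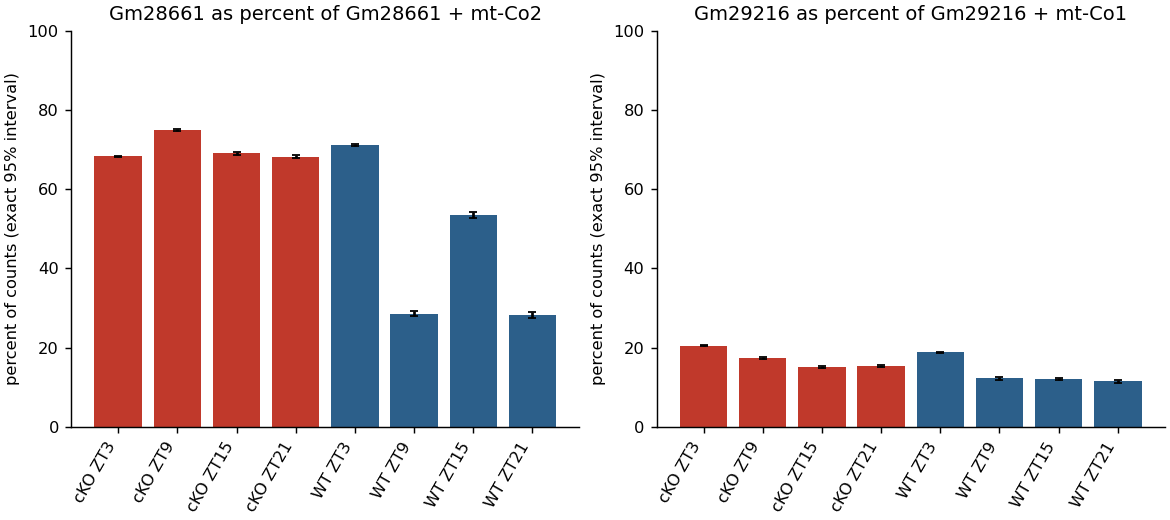
Percent of the summed counts of a nuclear copy and its mitochondrial gene that fell on the copy, per library, with exact 95% binomial intervals, for Gm28661 with mt-Co2 and for Gm29216 with mt-Co1. For Gm28661 the cKO libraries lie between 68.3 and 75.0%, and WT at ZT9 and ZT21 at 28.6 and 28.3%.

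Nuclear genes that transcribe, process and degrade mitochondrial RNA were followed as a list of 48 names, which gave 47 rows, all tested. Of the 47, 9 (19.1%) were lower in cKO at an unadjusted p under 0.05 and 2 (4.26%) were higher. Over all genes these shares were 11% and 10.5%. The median log2 fold change of the list was -0.08, against -0.03 over all genes tested. Negative values were found for 33 of 47 and, by that median, for most of all genes as well. edgeR called 0 of the 47 after adjustment. DESeq2 called 1 of 47, lower in cKO, which is too few to set the list apart. Of the 9469 genes to which DESeq2 gave an adjusted p, 1.5% were called lower and 4.59% higher. Several of the 47, among them Top1mt and Pnpt1, had no such value and could not be called. That gene, Mterf3, a factor that represses mitochondrial transcription in mice, averaged 28.5 ± 4.40 CPM in cKO and 43.1 ± 10.2 CPM in WT (SD, n = 4 each, log2 fold change -0.58, SE 0.14, DESeq2 adjusted p 0.0403). Fastkd1, a mitochondrial RNA-binding protein, averaged 10.8 ± 1.62 CPM in cKO and 15.4 ± 3.50 CPM in WT, and Ppargc1b, a coactivator of genes for mitochondria, averaged 34.8 ± 4.02 CPM in cKO and 51.6 ± 12.5 CPM in WT.

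The 2 genes higher at an unadjusted p under 0.05 were Top1mt and Hsd17b10. Top1mt, the mitochondrial topoisomerase, averaged 12.7 ± 2.24 CPM in cKO and 9.84 ± 3.07 CPM in WT. Hsd17b10, a subunit of the enzyme that cuts transfer RNAs from the precursor, averaged 33.4 ± 5.72 CPM in cKO and 26.2 ± 4.25 CPM in WT. Rexo2, an exonuclease of short RNAs and next by p with a positive fold change, did not pass in edgeR (log2 fold change 0.21, SE 0.11, unadjusted p 0.0914, adjusted p 0.299) and averaged 42.4 ± 3.70 CPM in cKO and 36.6 ± 3.04 CPM in WT. Polrmt, the mitochondrial RNA polymerase, had a log2 fold change of -0.20 (SE 0.10), Tfam, which opens its promoters, -0.07 (SE 0.11), and Lrpprc, which keeps the messengers stable, -0.04 (SE 0.10). Of the 47, 4 (8.51%) differed between times at an unadjusted p under 0.05, against 25.9% of all genes, and DESeq2 called 1 of 47, against 13% of the 15174 genes with an adjusted p. That gene, Mterf1a, singled out after its values were seen, had 4.14, 1.65, 1.62 and 1.20 CPM in cKO, against 4.34, 1.58, 1.28 and 1.64 CPM in WT (DESeq2 adjusted p 0.0121, edgeR adjusted p 0.0845), highest at ZT3 as the messengers were.

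Markers of several eye tissues stood higher or lower in cKO, none past an adjusted p under 0.05 in edgeR. The counts that follow are at an unadjusted p under 0.05, which 10.5% of all genes passed on the higher and 11% on the lower side. Of 19 lens rows 15 were higher in cKO, and their summed level was 177848 to 242717 CPM in cKO and 122073 to 158494 CPM in WT. Without the lens rows the mitochondrial share differed by 2.14 percentage points between the genotypes (exact permutation p = 0.286). Of 6 erythrocyte rows 5 were lower in cKO. Their summed CPM at ZT3, ZT9, ZT15 and ZT21 was 668, 813, 1122 and 943 in cKO, against 1113, 2205, 10242 and 1734 in WT. The highest value is that of WT at ZT15 alone, and WT at ZT3 lay within the cKO range. Müller glia markers, 6 of 8 higher, summed to 6839, 6140, 4819 and 6087 CPM in the cKO libraries of ZT3, ZT9, ZT15 and ZT21, against 6043, 3141, 3689 and 3902 CPM in WT.

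Pigment epithelium markers, 8 rows of which 4 of the 7 tested were higher, share Rlbp1 with the Müller list. They summed to 2266, 1840, 1597 and 1859 CPM in cKO, against 2089, 1078, 1305 and 1180 CPM in WT. In both lists WT at ZT3 lay among the cKO libraries, as it did for the mitochondrial messengers. Rod markers were higher for 1 of 14, no larger a share than over all genes, and skeletal muscle markers for 4 of 15, whose summed levels were 895 to 1274 CPM in cKO and 706 to 1322 CPM in WT. Corneal and conjunctival markers were higher for 3 of 7, with 3468 to 6196 CPM in cKO and 2710 to 3994 CPM in WT, and no marker of these lists was at 0 in all libraries. The part of these tissues in the mitochondrial differences was not tested.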

How the data were processed

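The authors deposited a table of raw counts by gene symbol, which per the labels' protocols come from RNA of whole eyes pooled from 3 mice. No normalization by the authors is recorded, and for the aligner, counter, genome build, annotation and strand the entry is "not given in the sources used here". Of 32544 rows, 27 whose symbol had become a date were left out, with 0.123 to 0.145% of the counts of a library.

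Counts were fitted in R 4.3.3 with edgeR 4.0.16 (quasi-likelihood F test after TMM scaling and filterByExpr on the genotypes, p-values adjusted by Benjamini-Hochberg over 15373 genes, threshold 0.05), with time as a factor and 3 residual degrees of freedom. The time test took the 3 time coefficients of that fit, and the wave difference a 24 h wave per genotype. DESeq2 1.42.0 and limma 3.58.1 were alternatives, beside other scalings, no filter on low counts, nuclear copies added, the ratios without mt-Nd5 in complex I (chosen after seeing the data) and libraries left out. Only the edgeR fits were tested on simulated counts, with changes put into 200 genes. At an adjusted p under 0.05, 22 of 188 genotype calls and 27 of 152 time calls were false. Of the 2-fold changes put in, 71% were found for genotype and 38% for time. Of the 4-fold changes, 95% and 87% were found. Ratios and shares used two-sided exact permutation tests, which ignore time, so their spread also holds the differences between times.

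Members, gene lists and tests were chosen with earlier results of these data known. The rule for naming took all messengers, and of the nuclear list those past the threshold and the 3 with the smallest p in each direction; Polrmt, Tfam and Lrpprc were added for their roles. Sequences and coordinates are those of GENCODE M21 (GRCm38), matched by symbol, for 13 of 13 messengers. Copies were found with blastn 2.17.0 among the transcripts of that annotation. Ratios with ribosomal or transfer RNAs could not be formed. No batch is given in the labels.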

Additional observations from a re-analysis of the deposited data

Results flagged for a closer look

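In WT, the library of ZT3 lay far above the 3 others for the share of counts on the 13 messengers and for each messenger. The gap to the nearest of the others, set against the range of the 4 libraries, picked it out in 14 of 36 groups of values checked. The share was 5.49%. Among complex I messengers, its levels were 5056 CPM for mt-Nd1, 1979 CPM for mt-Nd2, 1467 CPM for mt-Nd3, 372 CPM for mt-Nd4l, 5425 CPM for mt-Nd4, 2477 CPM for mt-Nd5 and 641 CPM for mt-Nd6. For complex III it had 6937 CPM for mt-Cytb. For complex IV it had 12637 CPM for mt-Co1, 2157 CPM for mt-Co2 and 6322 CPM for mt-Co3. For complex V it had 220 CPM for mt-Atp8 and 5475 CPM for mt-Atp6. Chance alone picks out about 5% of such groups, the 13 messengers share a library, and the 4 libraries of a genotype are different times rather than repeats, so time and this library cannot be told apart within WT. No cKO group was picked out.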

How the results depend on the processing

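The sign of the genotype difference held for all 13 messengers under each of 17 alternatives (221 values, log2 fold change 0.51 to 2.06), and that of ZT3 minus the other times under each of 15 (195 values, 0.61 to 3.16). All 13 were higher in cKO at 4 of 4 times and highest at ZT3 in both genotypes. Leaving out libraries could therefore hardly turn these signs, and the held signs add no separate support. The alternatives also share most of their data. The adjusted counts did not hold. For the genotype, DESeq2 called 10 messengers and 577 genes, and without the filter on low counts edgeR called 7 genes, against 0 with it. For time, DESeq2 called 10 messengers and 1979 genes, no filter gave 11 and 949, leaving out both ZT9 libraries gave 12 and 1543, and leaving out 1 library gave 0 to 10 messengers and 0 to 1697 genes, the highest without cKO at ZT9, and 1 gene without WT at ZT9. At an unadjusted p under 0.05, time passed for 4 to 13 messengers on leaving out 1 library (4 without WT at ZT3) and for 0 without both ZT3 libraries, and the genotype for 1 without the time factor. The genotype median was 0.98 to 1.52 on leaving out 1 library. Complex V over complex I ran from 0.24 to 0.68 on leaving out 1 library, the highest without WT at ZT3 (exact permutation p = 0.0286, the smallest possible here). The cause of these changes was not tested. The labels give no replicate numbers. They match a cKO with a WT library by time, and the fit with time as a factor already makes the genotype comparison within these pairs. Depth left a counting interval of at most 6.10 to 6.13% on the mitochondrial share, and the spread between pools of one genotype and time could not be measured.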
